A study of Homo sapiens with 16 samples.

Results

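Doublecortin and 8 further genes of the neuronal microtubule cytoskeleton and growth cone were examined for open chromatin in neurons and progenitors sorted from human brain organoids. The 9 genes, of 19970 protein-coding genes in the RefSeq table, were DCX, DCLK1, DCLK2, TUBB3, STMN2, MAP2, MAPT, MAP1B and GAP43. They were taken by name, and the window of each was the gene body and 20 kb on either side, in hg38 coordinates, as are all positions given. The assay was ATAC-seq, which reads out where a transposase, Tn5, can reach the DNA of isolated nuclei, and each library is represented by its own list of broad peaks. The neurons carried dTomato, a red protein driven by the human SYN1 promoter from the AAVS1 site, and the progenitors carried EGFP, a green protein joined to SOX2 on 1 allele. Both reporters were carried by the same line, made from the established human embryonic stem cells H9 and labelled wild type, so both populations share both insertions. Organoids were of telencephalon type, enriched in dorsal tissue, and were taken on days 40, 60, 90 and 120, with 2 libraries per population and day and so 8 neuron and 8 progenitor libraries.

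Newborn neurons reorganise their microtubules as they leave the ventricular zone, migrate and grow an axon. Doublecortin and its relatives bind and stabilise microtubules, tubulin isotypes build them, stathmins release tubulin from them, and the MAP proteins and tau set the spacing and stability of microtubules in dendrites and axons. Loss of DCX function in humans disturbs the migration of cortical neurons and causes lissencephaly or a band of misplaced neurons under the cortex.

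Neuron lists held 80345 to 138432 peaks covering 54.8 to 104 Mb, and progenitor lists held 67977 to 127772 peaks covering 36.9 to 103 Mb. Read depth is unknown, since the lists hold no read numbers. The shortest lists were replicate 2 of day 120 progenitors, at 36.9 Mb, and replicate 2 of day 60 neurons, at 54.8 Mb. Of 14 neuron markers, 5 were more widely covered in neurons and 0 in progenitors, and SYN1 itself had a log2 difference of -0.07 (limma adjusted p = 0.779). GAP43 was among the 5, and 5 of the 14 markers are genes of the present set. Of 9 radial glia markers, 6 were more widely covered in progenitors and 0 in neurons, led by SOX2 at -1.12 (limma adjusted p = 1.075e-06). Astroglia markers followed the progenitors, with 4 of 6 more widely covered there and 0 in neurons, and their summed coverage was 8.57 to 19.3 kb in neuron libraries and 11.8 to 29.5 kb in progenitor libraries. In sorted bulk cells, fewer cells of a type and a weaker signal per cell cannot be told apart. The part that this makeup of the sorted cells has in the results on the 9 genes was not tested. Choroid plexus markers had 1 of 5 more widely covered in progenitors and 0 in neurons, GABAergic neuron markers had 2 of 6 in progenitors and 0 in neurons, and oligodendrocyte markers had 0 of 6 in either population.

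Sequences at 4 starts of transcription show how different the control regions of these genes are, and are given because the peaks over them are described further on. Each runs from 250 bases before a RefSeq start to 50 bases after it, on GRCh38.p14 (hg38), 5′ to 3′ along the gene. Capitals mark matches on either strand to CAGATG (an E-box bound by proneural factors), TATAAA (the TATA box), CCAAT (the CAAT box), GGGCGG (the GC box) and TAATTA (a core bound by homeodomain factors), none of which lies within another.
DCX (chrX:111412143-111412442, minus strand): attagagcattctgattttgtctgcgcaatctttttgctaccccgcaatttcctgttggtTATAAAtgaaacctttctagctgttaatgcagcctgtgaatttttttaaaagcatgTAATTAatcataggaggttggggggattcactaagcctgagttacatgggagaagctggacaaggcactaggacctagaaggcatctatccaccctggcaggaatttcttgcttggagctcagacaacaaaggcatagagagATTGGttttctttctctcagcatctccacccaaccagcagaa
DCLK1 (chr13:36131333-36131632, minus strand): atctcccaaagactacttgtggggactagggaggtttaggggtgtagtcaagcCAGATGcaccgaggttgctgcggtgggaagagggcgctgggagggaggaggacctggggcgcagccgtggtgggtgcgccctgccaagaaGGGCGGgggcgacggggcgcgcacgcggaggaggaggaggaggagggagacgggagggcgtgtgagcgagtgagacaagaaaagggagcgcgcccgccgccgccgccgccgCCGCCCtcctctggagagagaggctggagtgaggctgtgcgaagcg
MAP1B (chr5:72107225-72107524, plus strand): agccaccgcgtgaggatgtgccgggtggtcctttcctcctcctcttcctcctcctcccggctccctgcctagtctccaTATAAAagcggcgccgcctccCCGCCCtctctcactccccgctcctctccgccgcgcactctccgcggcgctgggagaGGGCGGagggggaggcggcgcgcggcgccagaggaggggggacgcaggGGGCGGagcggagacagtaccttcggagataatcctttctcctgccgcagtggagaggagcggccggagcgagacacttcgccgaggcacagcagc
GAP43 (chr3:115623260-115623559, plus strand): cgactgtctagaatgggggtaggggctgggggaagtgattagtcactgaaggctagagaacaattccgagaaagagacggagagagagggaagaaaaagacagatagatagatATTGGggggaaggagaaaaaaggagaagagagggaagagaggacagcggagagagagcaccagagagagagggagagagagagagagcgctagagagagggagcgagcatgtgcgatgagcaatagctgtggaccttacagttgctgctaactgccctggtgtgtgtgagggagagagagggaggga
The DCX promoter is AT-rich, with 43.0% G and C against a median of 58.7% over 35116 promoters of the table. It holds 1 TATAAA, found in 11.5% of those promoters, 1 CCAAT, found in 34.6%, and 1 TAATTA, found in 4.84%, and its nearby second start also has 1 CAGATG, found in 14.7%. The DCLK1 promoter, with 69.0% G and C, holds 1 CAGATG and 2 matches to GGGCGG, which 45.0% of promoters contain. In the MAP1B promoter, with 70.0% G and C, there are 1 TATAAA and 3 GGGCGG. That of GAP43 has 52.7% G and C and, of the motifs searched, 1 CCAAT in the form ATTGG. Starts were listed for 7 of the 9 genes. Matches were taken anywhere in the sequence, whatever their distance from the start. These matches describe letters and show nothing about binding, nor that a match acts as the box it is named for.

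Coverage of the windows is given as covered kilobases, and it was tested on a scaled log2 scale. Covered bases plus 500 were taken as log2 and the log2 of the total covered bases of the library was subtracted, so a scaled level is relative to how much was called in that library. All levels were shifted by 1 shared constant, the mean log2 total. Differences are neurons minus progenitors, averaged over the 4 days in 1 limma fit of 8 group means, with p-values adjusted by Benjamini-Hochberg over 18751 genes. All 9 genes passed the filter on covered bases. Exact permutation tests are two-sided and their p-values are not adjusted. Where groups are said to be apart or to overlap, the share of all genes with the same pattern was not counted. Nothing in the labels tells if the 2 libraries of each group are separate cultures; the p-values therefore cover the spread between libraries only, and that spread may be technical.

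As a share of the window, which allows genes of different length to be compared, coverage was highest at TUBB3 and MAP1B. TUBB3 had 14.1% ± 3.76 in neurons and 12.9% ± 4.74 in progenitors (SD, n = 8 each). MAP1B had 11.0% ± 1.74 in neurons and 13.0% ± 2.998 in progenitors. The other 7 genes lay between 5.71% and 7.47% in neurons and between 4.58% and 7.58% in progenitors, within 1 SD of the next gene in order. TUBB3 is a short gene, of 14.2 kb, so most of its window is flank and overlaps the neighbours DEF8, MC1R, TCF25 and LOC124903759. Windows of DCX, DCLK1, STMN2, MAP2 and GAP43 overlap no other protein-coding gene. Those of DCLK2, MAPT and MAP1B take in part of LRBA, of KANSL1 and STH, and of MRPS27.

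**Figure D1:**
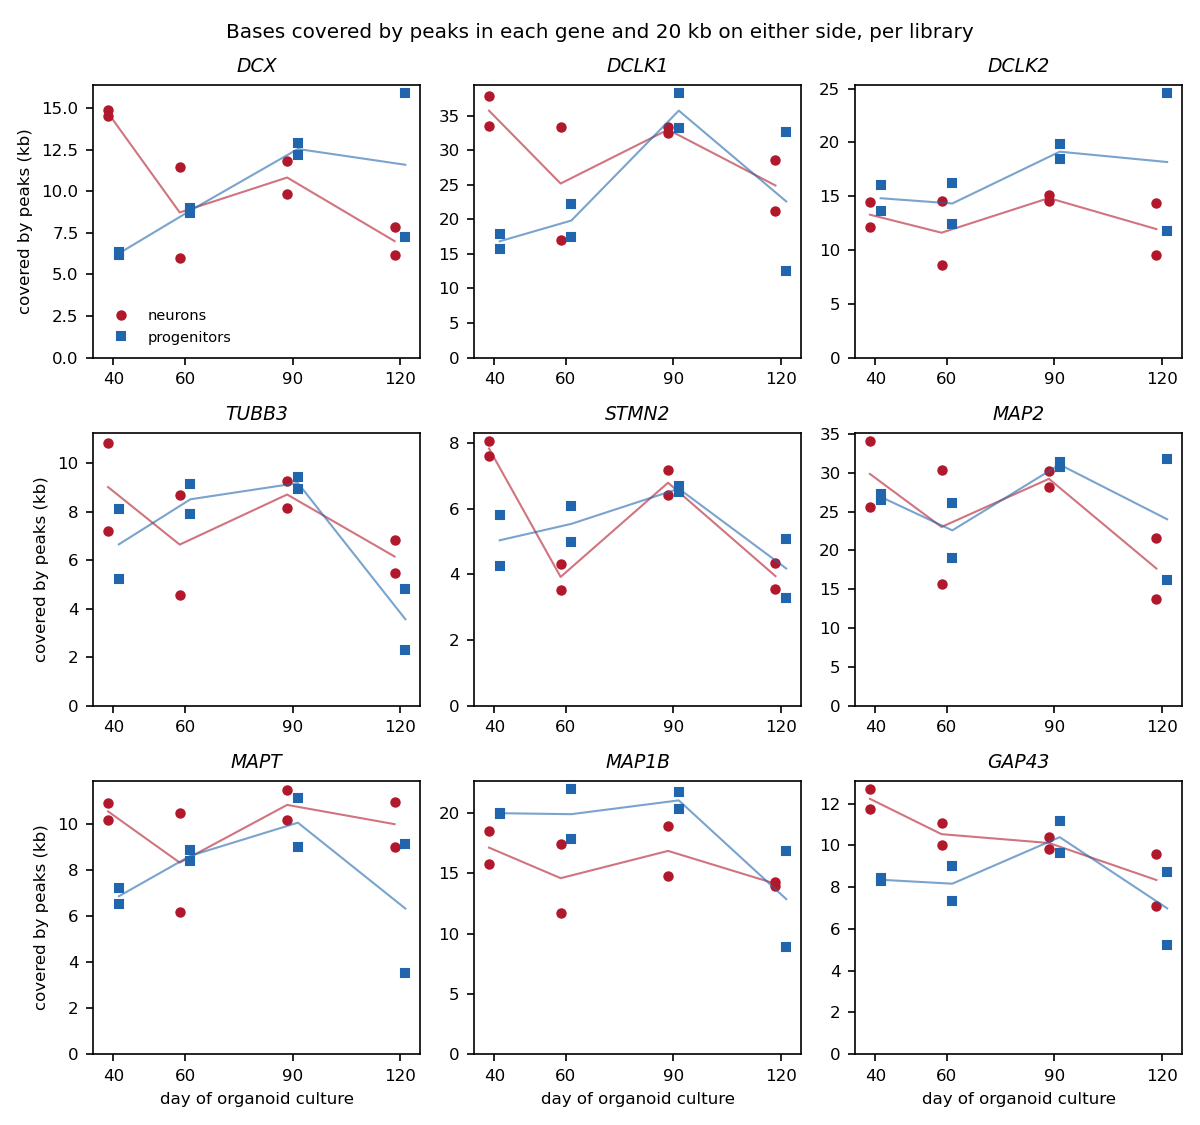
Covered kilobases (vertical axis, from 0) in the window of each of the 9 genes against the day of organoid culture, 1 symbol per library; red circles are neurons, blue squares are progenitors, and lines join the means of the 2 libraries. DCX shows neurons above progenitors at day 40 (14.9 and 14.5 kb against 6.14 and 6.37 kb) and below or overlapping them at days 90 and 120.

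Of the 9 genes, 3 (DCLK1, MAPT and GAP43) were more widely covered in neurons, and 1 (DCLK2) was more widely covered in progenitors. Over all genes tested, 11.1% passed the test in the direction of neurons and 9.89% in that of progenitors. The median difference of the 9 genes was 0.12 and that of all genes tested 0.05 (log2). DCX, TUBB3, STMN2, MAP2 and MAP1B did not pass. Without scaling to the amount called, the differences were 0.37 for DCLK1, 0.34 for MAPT, 0.28 for GAP43 and -0.34 for DCLK2, near the scaled ones, but none of the 9 passed in either direction (limma adjusted p of 0.231 to 0.335 for these 4). The split of calls over all genes was 653 toward neurons and 1024 toward progenitors, or 38.9% toward neurons, against 2089 and 1855, or 53.0%, with scaling. Leaving out progenitor day 120 replicate 2 gave 3521 and 1894 calls over all genes. When every list was cut to its strongest peaks so that all lists had equal length, DCX turned to -0.57 (limma adjusted p = 0.00946), MAPT stood at 1.43, MAP1B at -1.05 (limma adjusted p = 0.000227) and MAP2 at -0.50 (limma adjusted p = 0.00879). DCLK1 (0.44) and GAP43 (0.48) were also higher in neurons there, and DCLK2 was not called (-0.25, limma adjusted p = 0.0896). A fit of 2 population means, without days, left the differences at -0.29 for DCLK2 and 0.33 for GAP43 but ended their calls (limma adjusted p = 0.197 and 0.0625). By numbers of peaks, GAP43 differed by -0.03, DCLK2 was not called (-0.27, limma adjusted p = 0.0768), and DCX was called toward neurons (0.28, limma adjusted p = 0.0415).

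**Figure D2:**
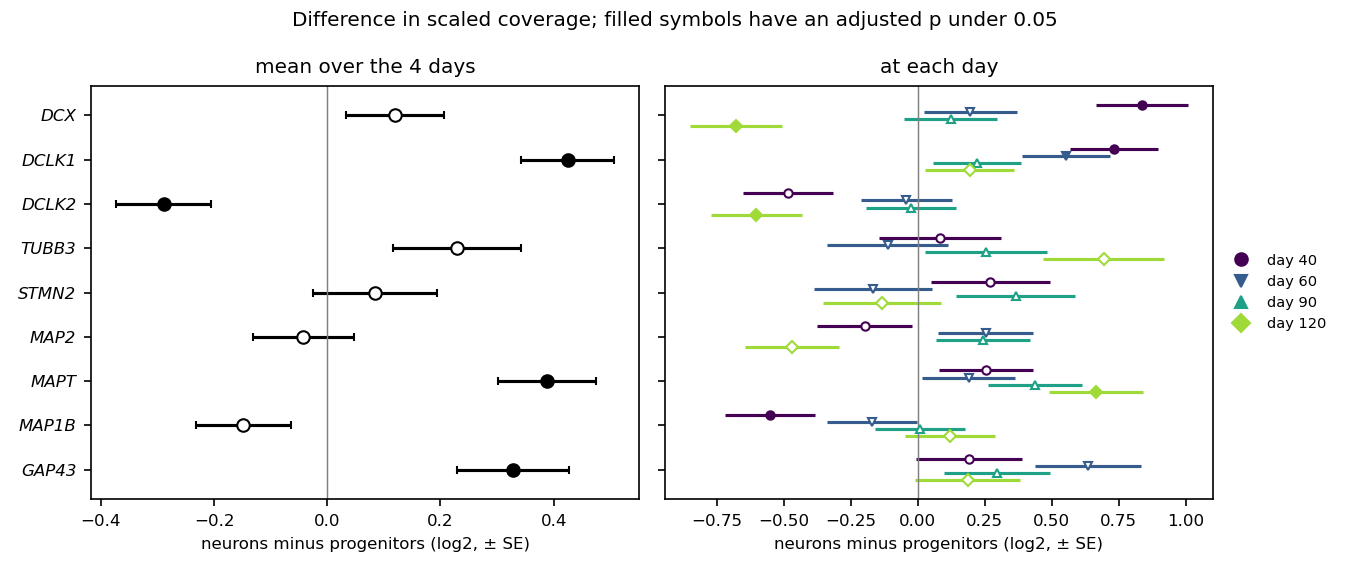
Log2 difference in scaled coverage, neurons minus progenitors, with its SE from the limma fit (horizontal axis), for each gene over the 4 days (left) and at each day (right, one symbol shape per day); filled symbols have an adjusted p under 0.05. DCLK1, MAPT and GAP43 lie to the right of 0 on the left-hand side and DCLK2 to the left, while the 4 days of DCX run from 0.84 at day 40 to -0.68 at day 120.

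DCX encodes doublecortin, the microtubule-binding protein of migrating neurons, and its gene lies on chromosome X, 111293779 to 111412192, on the minus strand. From day 40 to day 120, its window held 14.9 and 14.5, 11.5 and 5.97, 11.8 and 9.84, and 7.82 and 6.18 kb of peaks in the neuron libraries. Progenitor libraries had 6.14 and 6.37, 8.98 and 8.70, 12.9 and 12.2, and 15.9 and 7.26 kb at the same days. In covered kilobases, both neuron libraries thus exceeded both progenitor libraries at day 40, and the groups overlapped at days 60 and 120. Both progenitor libraries exceeded both neuron libraries at day 90. Relative to the amount called, the day 90 difference was instead 0.12, toward neurons, and was not called (SE 0.173, limma adjusted p = 0.762). On that scale the day 120 groups were apart, at 13.31 and 13.17 in neurons and 13.85 and 13.98 in progenitors. Averaged over days, DCX had 10.3 ± 3.47 kb in neurons and 9.80 ± 3.505 kb in progenitors (SD, n = 8 each, exact permutation p = 0.773). Its scaled log2 difference was 0.12 (SE 0.0863, limma adjusted p = 0.358).

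On the scaled scale the neuron libraries stayed within 13.15 to 13.53, whereas the progenitor libraries spanned 12.64 to 13.98. Scaled levels in progenitors, from day 40 to day 120, were 12.68 and 12.64, 13.03 and 13.15, 13.29 and 13.26, and 13.85 and 13.98, with no overlap between successive days. Ordered by group mean, day 40 progenitors (12.66) and day 60 progenitors (13.09) were lowest and day 120 progenitors (13.92) highest. Between them came day 120 neurons, day 90 progenitors, and day 60, day 90 and day 40 neurons, from 13.24 to 13.50, each overlapping the next of these 5 groups. At day 40 coverage was higher in neurons, by 0.84 (SE 0.173, limma adjusted p = 0.0038), where 2.27% of all genes were called toward neurons and 4.37% toward progenitors. At day 120 it was lower in neurons, by a log2 difference of -0.68 (limma adjusted p = 0.0178), where 4.0% of genes were called toward neurons and 2.87% toward progenitors. The day 40 call was lost without progenitor day 40 replicate 2 (0.82, limma adjusted p = 0.0512), and the day 120 call without neuron day 120 replicate 1 (-0.75, limma adjusted p = 0.0736) or replicate 2 (-0.61, limma adjusted p = 0.158). Lists of equal length gave 0.36 at day 40 (limma adjusted p = 0.492) and numbers of peaks gave 0.41 (limma adjusted p = 0.207). The day 120 call was also lost with 5 kb flanks (-0.60, limma adjusted p = 0.0561) and with the gene body alone (-0.46, limma adjusted p = 0.231). A pseudocount of 2000 bases gave -0.60 (limma adjusted p = 0.0738) and numbers of peaks gave -0.24 (limma adjusted p = 0.543). At day 90 none of the 9 genes was called by limma in either direction, with 1.35% of all genes called toward neurons and 1.1% toward progenitors, and MAPT alone had an unadjusted p under 0.05.

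Between days 90 and 120 and days 40 and 60, DCX rose in progenitors by 0.72 (SE 0.122, limma adjusted p = 0.00189), a contrast in which 1.45% of all genes rose and 1.46% fell. This call held with each of the 16 libraries left out in turn, with differences of 0.69 to 0.75, but not with lists of equal length (0.60, limma adjusted p = 0.0929) or by numbers of peaks (0.44, limma adjusted p = 0.0871). The late minus early change differed between neurons and progenitors by -0.79 (SE 0.173, limma adjusted p = 0.0325), a difference that 0.261% of genes showed in this direction. With single libraries removed it ranged from -0.87 to -0.72, and it passed only without neuron day 40 replicate 1, neuron day 60 replicate 2, or either progenitor library of day 120; in the other 12 cases the limma adjusted p went up to 0.116. In the gene body alone it was -0.75 (limma adjusted p = 0.0944), and by numbers of peaks -0.15 (limma adjusted p = 0.857). Of the neuron markers, 2 of 14, DCX among them, rose and 1 fell between early and late progenitors, while 0 of 9 radial glia markers and 0 of 6 astroglia markers passed by limma in either direction, with 1 and 0 of them at an unadjusted p under 0.05. Their part in the DCX values was not tested. Without scaling, the rise in progenitors was 0.61 and was not called (limma adjusted p = 0.337).

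Where in the locus the progenitor coverage lay was described by splitting it into bases within 3 kb of a listed start, the rest of the gene and the flanks. Near the starts, late progenitors had 1.91 ± 0.0672 kb and early progenitors 1.96 ± 0.335 kb (SD, n = 4 each). In the rest of the gene, late progenitors had 7.93 ± 2.29 kb and early progenitors 4.34 ± 1.09 kb. In neurons the rest of the gene held 6.42 ± 2.51 kb late and 7.89 ± 3.13 kb early. The flanks held 2.23 ± 1.48 kb in late and 1.25 ± 0.425 kb in early progenitors. In covered kilobases, most of the extra coverage of late progenitors thus lay inside the gene, away from its starts. The means near the starts differed by less than 1 SD. These parts were not scaled to the amount called, and the part near the starts is a small share of the 158 kb window. Where the scaled rise lay was therefore not tested.

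DCLK1, which joins doublecortin domains to a protein kinase domain, lies on chromosome 13, 35768652 to 36131939, on the minus strand. From day 40 to day 120 its window held 33.5 and 37.9, 33.3 and 17.04, 32.5 and 33.4, and 28.6 and 21.2 kb in neuron libraries. In progenitor libraries it held 15.8 and 17.9, 22.2 and 17.4, 33.2 and 38.2, and 32.7 and 12.5 kb. The neuron libraries were about level except for the short list of day 60 replicate 2 and the lower pair at day 120, whereas the progenitor libraries of days 40 and 60 were all below those of day 90. The means were 29.7 ± 7.07 kb in neurons and 23.7 ± 9.60 kb in progenitors (SD, n = 8 each, exact permutation p = 0.189). After scaling, DCLK1 was higher in neurons by 0.43 (SE 0.0824, limma adjusted p = 0.000524), with neuron means above progenitor means at 4 of 4 days and groups apart at 3 of them. An exact permutation of the scaled values gave p = 0.0157, and p = 0.00309 with libraries exchanged only within a day (n = 8 each).

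By day, DCLK1 was higher in neurons at day 40, by 0.73 (SE 0.165, limma adjusted p = 0.00769), and at day 60, by 0.55 (SE 0.165, limma adjusted p = 0.0453). At day 60, 3.35% of all genes were called toward neurons and 2.68% toward progenitors. Like DCX, DCLK1 rose in progenitors between the early and the late days, by 0.66 (SE 0.117, limma adjusted p = 0.00258). Here too the coverage near the starts was level in unscaled kilobases, at 2.73 ± 0.707 kb in late and 2.73 ± 0.465 kb in early progenitors. The rest of the gene held 24.5 ± 9.52 kb in late and 14.7 ± 2.46 kb in early progenitors (SD, n = 4 each). The flanks held 1.88 ± 1.26 kb late and 0.903 ± 0.627 kb early. The calls of DCLK1 over all days and for late minus early progenitors held with each library left out, although by numbers of peaks the late minus early difference was 0.40 (limma adjusted p = 0.0794). Its day 40 call was lost without neuron day 40 replicate 2 (0.60, limma adjusted p = 0.117), progenitor day 40 replicate 1 (0.69, limma adjusted p = 0.101) or progenitor day 40 replicate 2 (0.78, limma adjusted p = 0.0513), and its day 60 call in 11 of 16 such cases, with limma adjusted p-values up to 0.259. The day 60 call held without either neuron library of day 40, neuron day 60 replicate 2 or either progenitor library of day 120. Neither day was called with lists of equal length (0.60 at day 40 and 0.73 at day 60, limma adjusted p = 0.106 and 0.0548) or by numbers of peaks (0.50 and 0.42, limma adjusted p = 0.0757 and 0.156), and day 60 was not called with 5 kb flanks (0.54, limma adjusted p = 0.0524) or scaling to the median gene (0.43, limma adjusted p = 0.305).

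**Figure D3:**
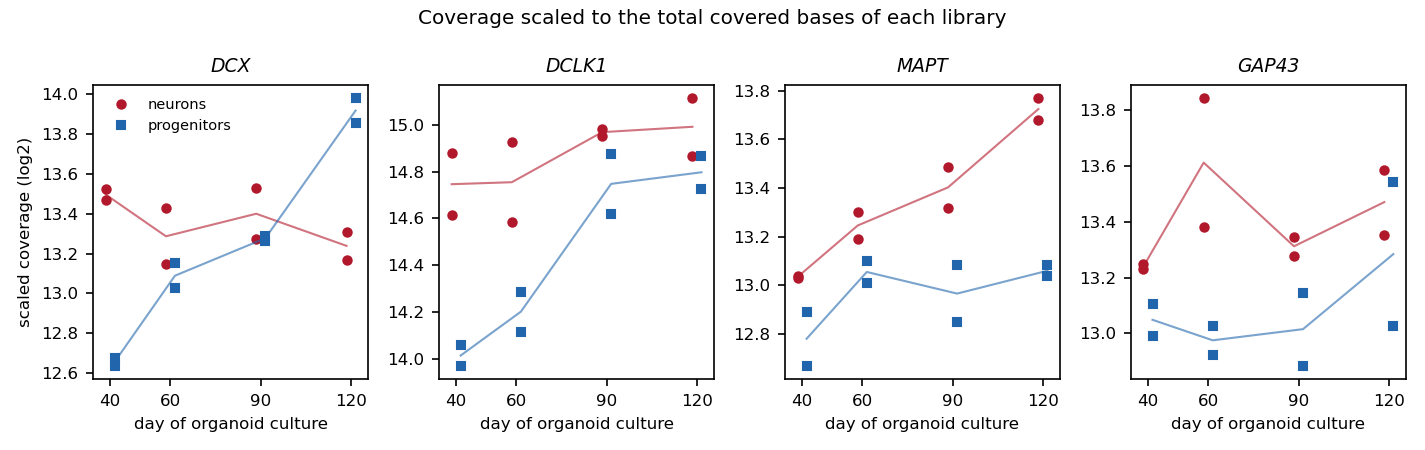
Scaled coverage (log2, vertical axes do not start at 0) of DCX, DCLK1, MAPT and GAP43 against day, 1 symbol per library; red circles are neurons, blue squares are progenitors, and lines join the means of 2 libraries. DCX in progenitors lies at 12.68 and 12.64 at day 40 and at 13.85 and 13.98 at day 120. Both neuron libraries of MAPT lie above both progenitor libraries at each of the 4 days, a pattern whose share over all genes was not counted.

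DCLK2, the other doublecortin-like kinase gene of the set (chromosome 4, 150078445 to 150257438, plus strand), went the opposite way. Neuron libraries held 14.5 and 12.1, 14.6 and 8.61, 15.1 and 14.5, and 14.3 and 9.55 kb from day 40 to day 120. Progenitor libraries held 13.6 and 15.99, 16.3 and 12.4, 18.4 and 19.8, and 24.6 and 11.8 kb. In covered kilobases the 2 populations thus overlapped at every day but day 90. The means were 12.9 ± 2.54 kb in neurons and 16.6 ± 4.28 kb in progenitors (SD, n = 8 each, exact permutation p = 0.0496). Scaled coverage was lower in neurons, with a difference of -0.29 (SE 0.0845, limma adjusted p = 0.0156) and neuron means below progenitor means at 4 of 4 days. At days 60 and 90 the scaled means were nearly level, at -0.04 and -0.03 (limma adjusted p = 0.92 and 0.956), and at day 40 the difference was -0.48 (limma adjusted p = 0.085). On this scale the populations were apart at days 40 and 120 and overlapped at days 60 and 90. An exact permutation of the scaled values gave p = 0.0934, and p = 0.0185 with libraries exchanged only within a day (n = 8 each). The call was lost without neuron day 120 replicate 2 (-0.24, limma adjusted p = 0.0623) or progenitor day 90 replicate 2 (-0.27, limma adjusted p = 0.0543). At day 120 alone the difference was -0.60 (limma adjusted p = 0.0313), and it was not called without neuron day 120 replicate 2 (-0.41, limma adjusted p = 0.369) or progenitor day 120 replicate 2 (-0.51, limma adjusted p = 0.0964), nor with lists of equal length (-0.66, limma adjusted p = 0.0774) or by numbers of peaks (-0.51, limma adjusted p = 0.175).

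TUBB3 encodes the beta tubulin isotype by which neurons are commonly recognised (chromosome 16, 89921925 to 89936097, plus strand). Its window had 7.63 ± 2.04 kb in neurons, from 4.59 to 10.8 kb, and 6.98 ± 2.56 kb in progenitors, from 2.31 to 9.42 kb (SD, n = 8 each, exact permutation p = 0.584). The ranges overlapped almost wholly, and the scaled difference of 0.23 was not called (SE 0.113, limma adjusted p = 0.157). At day 120 the neuron libraries had 6.83 and 5.48 kb and the progenitor libraries 4.83 and 2.31 kb, and the scaled difference there was 0.69 (SE 0.227, limma adjusted p = 0.0643). STMN2, the stathmin of growth cones that binds free tubulin (chromosome 8, 79611117 to 79666158), had 5.62 ± 1.88 kb in neurons, from 3.52 to 8.07 kb, and 5.34 ± 1.17 kb in progenitors, from 3.29 to 6.69 kb (exact permutation p = 0.720, n = 8 each). Its scaled difference was 0.08 (SE 0.110, limma adjusted p = 0.642), with neurons higher on average at 2 of 4 days.

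MAPT encodes tau, the microtubule-associated protein enriched in axons, and lies on chromosome 17, 45894554 to 46028334. The neuron libraries had 10.9 and 10.1, 10.5 and 6.17, 11.5 and 10.2, and 11.0 and 9.01 kb from day 40 to day 120. In progenitor libraries there were 7.19 and 6.52, 8.85 and 8.38, 11.1 and 8.99, and 9.11 and 3.53 kb. In covered kilobases the groups were apart only at day 40, and the means were 9.92 ± 1.68 kb in neurons and 7.96 ± 2.25 kb in progenitors (SD, n = 8 each, exact permutation p = 0.0646). Relative to the amount called, both neuron libraries lay above both progenitor libraries at each of the 4 days, with neuron levels of 13.03 to 13.77 and progenitor levels of 12.67 to 13.10. The scaled difference was 0.39 (SE 0.0869, limma adjusted p = 0.0021), and it held with each library left out, at 0.36 to 0.42. Exact permutation of the scaled values gave p = 0.0028, and p = 0.00154, the smallest that exchange within days can give, when days were kept apart (n = 8 each). The second p-value follows from the separation at all 4 days and adds nothing to it. How many of all genes were separated in this way was not counted.

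MAPT was also the only 1 of the 9 genes called between early and late neurons, where it rose by 0.42 (SE 0.123, limma adjusted p = 0.0402), a contrast in which 3.3% of all genes rose and 2.37% fell. That call held only without either progenitor library of day 120, was lost in the other 14 single-library removals, with limma adjusted p-values up to 0.172, and its difference without scaling was 0.16 (limma adjusted p = 0.757). It was also lost in the gene body alone (0.48, limma adjusted p = 0.0545) and with lists of equal length (0.38, limma adjusted p = 0.46). In the same contrast 2 of 9 radial glia markers rose and 0 fell, with a median of 0.21 against 0.06 for all genes, while 0 of 14 neuron markers rose and 1 fell; their part in the MAPT values was not tested. In progenitors the late minus early difference of MAPT was 0.10 (SE 0.123, limma adjusted p = 0.816), and the difference between the 2 changes did not pass (0.33, limma adjusted p = 0.444). At day 120 MAPT was higher in neurons by 0.67 (SE 0.174, limma adjusted p = 0.0204), though not without neuron day 120 replicate 1 (0.62, limma adjusted p = 0.159) or replicate 2 (0.71, limma adjusted p = 0.0946), nor with 5 kb flanks (0.60, limma adjusted p = 0.0564), the gene body alone (0.66, limma adjusted p = 0.0616) or scaling to the median gene (0.58, limma adjusted p = 0.059).

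MAP2, which binds microtubules in dendrites (chromosome 2, 209424047 to 209734112, plus strand), had 24.9 ± 7.30 kb in neurons, from 13.8 to 34.1 kb, and 26.1 ± 5.74 kb in progenitors, from 16.2 to 31.8 kb (SD, n = 8 each, exact permutation p = 0.721). Its scaled difference was -0.04 (SE 0.0887, limma adjusted p = 0.788). MAP1B, the microtubule-associated protein of early growing axons (chromosome 5, 72107475 to 72209565, plus strand), had 15.7 ± 2.47 kb in neurons, from 11.8 to 18.9 kb, and 18.5 ± 4.26 kb in progenitors, from 8.86 to 22.02 kb (exact permutation p = 0.133, n = 8 each). Over the 4 days the scaled difference of -0.15 was not called (SE 0.0839, limma adjusted p = 0.224). At day 40 alone, with 18.5 and 15.8 kb in neurons and 20.03 and 19.96 kb in progenitors, it was lower in neurons by a log2 difference of -0.55 (SE 0.168, limma adjusted p = 0.0463), a call that held without either library of day 60 neurons, day 90 neurons or day 120 progenitors, and was lost in the other 10 single-library removals and under scaling to the median gene (-0.40, limma adjusted p = 0.180), with 5 kb flanks (-0.55, limma adjusted p = 0.0579) and by numbers of peaks (-0.07, limma adjusted p = 0.869).

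GAP43 encodes a membrane protein of growth cones that is phosphorylated by protein kinase C, and lies on chromosome 3, 115623510 to 115721483, on the plus strand. In neuron libraries its window held 12.7 and 11.8, 11.1 and 10.002, 9.85 and 10.4, and 9.59 and 7.10 kb from day 40 to day 120. Progenitor libraries held 8.43 and 8.29, 8.99 and 7.34, 9.63 and 11.2, and 8.74 and 5.23 kb. Neurons exceeded progenitors without overlap at days 40 and 60, and the groups overlapped at days 90 and 120. The means were 10.3 ± 1.67 kb in neurons and 8.48 ± 1.72 kb in progenitors (SD, n = 8 each, exact permutation p = 0.0486). Scaled coverage was higher in neurons by 0.33 (SE 0.0985, limma adjusted p = 0.018), at 4 of 4 days, and exact permutation within days gave p = 0.00772 (n = 8 each). The call was lost without neuron day 60 replicate 2 (0.27, limma adjusted p = 0.0543), neuron day 120 replicate 1 (0.30, limma adjusted p = 0.0557) or progenitor day 90 replicate 1 (0.30, limma adjusted p = 0.0617), and with a −log10 q of at least 2 (0.30, limma adjusted p = 0.0528).

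Over the gene starts, most of these loci were open in both populations. A peak lay over the listed starts of DCX, DCLK2, MAP2, MAP1B and GAP43 in 16 of 16 libraries, and likewise over 1 gene end of STMN2 and 1 of MAPT. The DCLK1 start at 36131382 had a peak in 6 of 8 neuron and 8 of 8 progenitor libraries, and its inner start at 35855667 in 7 of 8 of each. The remaining listed DCLK1 start, at 36131939, had a peak in 0 of 8 neuron and 1 of 8 progenitor libraries. Over TUBB3, the start at 89921925 had a peak in 7 of 8 neuron and 7 of 8 progenitor libraries. The second TUBB3 start, at 89923342, was covered in 2 neuron and 2 progenitor libraries, which were the 4 libraries of day 90. These counts ask for a peak over the start base itself. With overlapping peaks of all libraries merged, the region from 36129654 to 36132184, around the DCLK1 starts at 36131382 and 36131939, had a peak in 8 of 8 libraries of each population. So did the region around both TUBB3 starts, from 89921657 to 89926806. Within 1 kb of the starts, none of the 9 genes, a count of 0, had an exact permutation p under 0.05 for covered bases (n = 8 each). The count was 1 without progenitor day 60 replicate 2 and 1 without progenitor day 120 replicate 2. Start windows were tested for the 9 genes only, so no share over all genes stands beside these counts.

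The authors' peak values rank each start within its own list, and ranks from lists of different lengths show no change. At the first listed MAP2 start the peak stood at a median rank of the top 1.76% of the list in neurons and 8.37% in progenitors. The MAP2 start at 209661496 was about level, at 7.32% in neurons and 6.62% in progenitors. At the STMN2 end at 79611117 these medians were 4.13% and 21.6%. The DCX start peak ranked high in both, at 6.04% in neurons and 5.20% in progenitors. At the inner MAP1B start, 72179787, the medians were 35.5% in neurons and 7.91% in progenitors. The outer MAP1B start, 72107475, went the other way, at 17.4% in neurons and 22.4% in progenitors.

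The broad peak over the GAP43 start, whose sequence is given above, reached farther into the gene in neurons. From day 40 to day 120 it was 1.33 and 3.23, 3.65 and 3.88, 3.67 and 3.91, and 3.66 and 1.85 kb wide in neuron libraries. It was 1.36 and 1.33, 1.67 and 1.49, 1.65 and 1.64, and 1.56 and 0.659 kb wide in progenitor libraries. All but 1 of the neuron widths exceeded all progenitor widths. Within 3 kb of the start, covered bases came to 2.94 ± 0.479 kb in neurons and 1.74 ± 0.493 kb in progenitors, a difference of 1.20 kb (SD, n = 8 each, exact permutation p = 0.000622). With libraries exchanged only within a day the exact p was 0.00154, the smallest that such exchange can give. With exchange over all days and each library left out in turn, the exact p lay between 0.000155 and 0.0014. Within 1 kb the values were 1.21 ± 0.0546 kb in neurons and 1.23 ± 0.237 kb in progenitors (exact permutation p = 0.959, n = 8 each), so the difference lay mostly beyond the first kilobase. Without progenitor day 120 replicate 2, the difference within 1 kb was -0.10 kb (exact permutation p = 0.00839, n = 8 and 7). In the 8 progenitor libraries the start peak ended 0.309 to 1.35 kb into the gene, and a separate peak began 2.36 to 3.41 kb into it. In the 6 neuron libraries with the widest peak, a single peak ran across that gap and ended 2.89 to 3.74 kb into the gene.

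At the ends of MAPT, the same wider window held 3.58 ± 0.559 kb in neurons and 2.67 ± 0.982 kb in progenitors (SD, n = 8 each, exact permutation p = 0.0409). That p was 0.0525 with exchange within days, and it rose to as much as 0.0791 in the 11 of 16 single-library removals that ended the call. It held without neuron day 60 replicate 2, neuron day 120 replicate 2, progenitor day 40 replicate 1, progenitor day 90 replicate 2 or progenitor day 120 replicate 1. The MAP1B start peak was over 4 kb wide in 1 of 8 neuron libraries and in 5 of 8 progenitor libraries, with a median width of 1.86 kb in neurons and 4.24 kb in progenitors. Bases covered within 3 kb of the MAP1B starts did not differ beyond the spread between libraries, with 3.56 ± 0.641 kb in neurons and 4.15 ± 0.975 kb in progenitors (exact permutation p = 0.174, n = 8 each), but did so without progenitor day 120 replicate 2 (-0.87 kb, exact permutation p = 0.0232). The DCX start peak was 1.79 to 2.62 kb wide in neurons and 1.76 to 2.46 kb in progenitors.

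**Figure D4:**
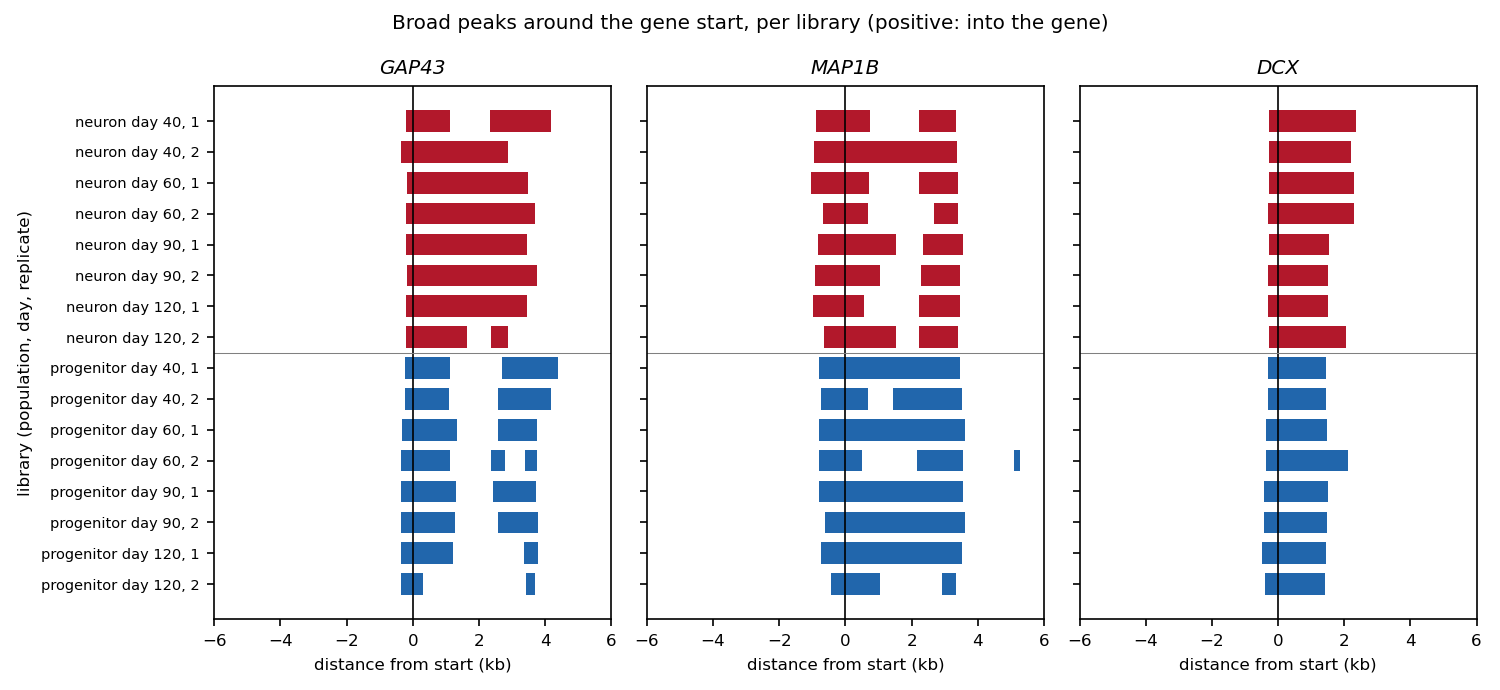
Broad peaks (bars) around the start of GAP43, MAP1B and DCX in each of the 16 libraries, by distance from the start in kb with positive values into the gene; the 8 neuron libraries (red) stand above the 8 progenitor libraries (blue). The peak over the GAP43 start is 3.23 kb or wider in 6 of 8 neuron libraries and at most 1.67 kb wide in progenitors.

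Merging the peaks of all libraries gave 380 regions in the 9 windows, 44 with a peak in 16 libraries and 119 in 1. Of the 206 regions with a peak in 2 to 14 libraries, 1 was found more often in neurons and 2 more often in progenitors (Fisher's exact test, adjusted over 182580 regions). Over all regions tested, 1.27% were called toward neurons and 3.06% toward progenitors. The MAPT region, chromosome 17, 45923481 to 45924380, is 900 bases long, lies inside the gene, and had a peak in 7 of 8 neuron and 0 of 8 progenitor libraries (exact test, adjusted p = 0.0323). Inside DCLK1, the region on chromosome 13 from 35908068 to 35908703, 636 bases long and 52401 bases from the nearest listed start, had a peak in 0 of 8 neuron and 8 of 8 progenitor libraries (exact test, adjusted p = 0.0118). The STMN2 region, chromosome 8, 79662741 to 79663334, had a peak in 0 of 8 neuron and 7 of 8 progenitor libraries (exact test, adjusted p = 0.0323). These regions thus went against the whole window in the case of DCLK1, which was more widely covered in neurons.

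With libraries exchanged only within a day, no region was called anywhere: 0 of the 182580 regions passed, the 9 genes' included, and the smallest adjusted exact p was 0.107. The smallest exact p that such exchange can give is 0.00154, so a region could pass only if very many regions reached that value together. This test therefore cannot decide whether the region calls hold within days. At an unadjusted exact p under 0.05, 17 of the 206 regions (8.25%) leaned toward neurons and 19 (9.22%) toward progenitors, against 6.97% and 10.7% of all regions. When a region had to be covered by at least 50%, Fisher's exact test called 0 of these regions in either direction, and 155 toward neurons and 714 toward progenitors over all regions, where the main rule called 2318 and 5582. In neurons, 5 of 307 regions in these windows had a peak in 4 of 4 late and 0 of 4 early libraries, where 1.67% of all regions did, and 0 had the reverse pattern, where 0.361% did. In progenitors these counts were 1 and 2 of 250 regions, where 0.795% and 0.737% of all regions did. The count in late neurons was near the share over all regions.

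Other genes of the same pathways, in lists chosen with earlier results of these data known, are given by counts and medians. Of 7 further genes with doublecortin domains, 3 were higher in neurons and 0 in progenitors, with a median of 0.01. They were DCLK3, a kinase relative of DCLK1, at 0.81 (SE 0.118, limma adjusted p = 1.909e-05), the photoreceptor gene RP1 at 0.67 and DCDC2C at 0.61. Of 16 other tubulin genes, 0 passed in either direction by limma, with a median of 0.15, and 2 were higher in neurons at an unadjusted p under 0.05. Of 22 further microtubule-associated and stathmin genes, 4 were higher in neurons and 0 in progenitors, with a median of 0.18. They were STMN4, a stathmin of the nervous system, at 1.06 (SE 0.113, limma adjusted p = 3.588e-07), the tubulin polyglutamylase TTLL7 at 0.88, and CAMSAP3 and CAMSAP2, which bind microtubule minus ends, at 0.51 and 0.46.

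Genes of motors and lissencephaly split evenly, with 4 of 21 higher in each population and a median of -0.04. The kinesin heavy chain KIF5B stood at -0.72, KIF1B at -0.62 and KIF21A at -0.42, all wider in progenitors, and KIF3C at 0.38. Of 16 growth cone and axon outgrowth genes, 6 were higher in neurons and 1 in progenitors, with a median of 0.14. CRMP1, a collapsin response mediator protein, stood at 0.73 (limma adjusted p = 1.989e-05), GPRIN1 at 0.73, the adhesion protein CNTN2 at 0.55 and DPYSL5 at 0.40. Of 15 spindle genes of dividing cells, 0 were higher in neurons and 1, TACC3, was higher in progenitors, at -0.42. The median over all genes tested was 0.05 and the shares called were 11.1% toward neurons and 9.89% toward progenitors, as given above.

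Across the 16 libraries, the scaled coverage of DCX ran most like that of MTSS1 (Pearson r 0.84), HIVEP3 (0.837), EGFR (0.824), CEP295NL (0.812) and TMCO5A (0.811), among genes on other chromosomes or over 1 Mb away. For the other genes the nearest was PHKB for DCLK1 (0.911), SAMD13 for DCLK2 (0.918), HDGFL3 for TUBB3 (0.897), SYCP1 for STMN2 (0.773), ARLN for MAP2 (0.771), ANAPC7 for MAPT (0.915), AFTPH for MAP1B (0.897) and POP7 for GAP43 (0.935). Among the 9 genes themselves, DCLK2 and MAP2 ran closest (0.70), followed by DCX and DCLK1 (0.67) and by DCLK1 and MAPT (0.65), while DCLK2 and TUBB3 ran in opposite directions (-0.43). These are descriptions over libraries that share the amount called in each list, and no gene was tested for likeness.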

How the data were processed

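Broad-peak lists from ATAC-seq of 8 neuron and 8 progenitor libraries were used. The submitters' processing notes name Trim Galore 0.5.0, MACS2 2.1.2, BWA 0.7.17, Picard and SAMtools 1.9, and hg38 as the build. Call settings, any Tn5 offset and the handling of duplicates were not given in the sources used here. Each deposited list holds a score per peak (column 5), the authors' fold enrichment ratio (column 7), and the authors' −log10 p-values (column 8) and −log10 q-values (column 9), which served to order or select peaks inside 1 list. Read depth is unknown, and lists called one by one can differ in length through depth or quality. Chromosomes 1 to 22 and X were kept, leaving out 95 to 387 peaks per library.

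Gene positions, starts and promoters came from RefSeq tables of GRCh38.p14. The limma test (version 3.58.1, R 4.3.3, trended prior, adjusted p under 0.05) was run on every gene that had 500 or more covered bases in 2 or more libraries. The pseudocount of 500 bases shrinks differences of sparsely covered genes. Fisher tests and the within-day test of regions used scipy 1.17.1, and exact permutation tests of coverage listed all exchanges with numpy 2.4.6 (Python 3.11.15). The fits and the region test were tested on simulated data. All 9 genes were named. From each other list, up to 4 genes past the threshold with the largest differences were named, and up to 3 called regions per window. For likeness, 5 genes were named for DCX and 1 for each other gene. Members and lists were chosen with earlier results of these data known. Alternatives were other flanks, pseudocounts, scalings, filters, start windows and overlaps, lists of equal length, a −log10 q of at least 2, numbers of peaks, 2 population means, the replicate block and each library left out. The within-day test of the 3 kb start window and the split of coverage into starts, gene and flanks were added after the data were seen.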

Additional observations from a re-analysis of the deposited data

Results flagged for a closer look

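In the 8 progenitor libraries, the scaled coverage of STMN2 was 12.95 in replicate 2 of day 120, far above the next library for a group of 8 by Dixon's test. That of GAP43 was 13.54 in the same library, again the highest of the 8 and apart from the others. This library has the shortest list, at 36.9 Mb, and in covered kilobases it had the lowest values of the 8 progenitor libraries for both genes, at 3.29 kb for STMN2 and 5.23 kb for GAP43. Chance alone gives such a gap in about 1 in 20 groups, and 9 genes in 2 populations were examined. Without it, the difference between neurons and progenitors was 0.17 for STMN2 (limma adjusted p = 0.178) and 0.39 for GAP43 (limma adjusted p = 0.00415).

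The late minus early change of DCX differed between neurons and progenitors by -0.79 on the log2 scale (limma adjusted p = 0.0325), by a test of the difference itself. It was 0.72 in progenitors, and the values in each library are given with the results.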

How the results depend on the processing

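Without scaling, the numbers of the 9 genes called were 0 in both directions over all days, at days 40, 60 and 120, in late minus early neurons and progenitors, and in their difference, while the differences over all days stayed near the scaled ones. The median over all genes was, from day 40 to day 90, -0.156, 0.122 and 0.128 scaled against 0.176, -0.161 and -0.203 unscaled, and 0.0585 and -0.204 for late minus early neurons. With lists cut to equal length, 3 genes were higher in progenitors, as were 2007 of all 17582 genes tested, while 2919 were higher in neurons. Of the 9 genes, 1 was called at day 40, 2 at day 60, 3 at day 90, 0 in late minus early neurons and 1 at the starts. Shares over all genes are not given for these single contrasts, nor for those under the other settings below. Such counts therefore cannot be read as results about the 9 genes. Regions called were 0 toward neurons and 6 toward progenitors, against 1158 and 3122 over all regions. DCX reversed to -0.57 (limma adjusted p = 0.00946), and starts of DCLK1 to -0.32 kb and gene ends of MAPT to 0.16 kb.

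A −log10 q of at least 2 gave 0 at day 60 and in late minus early neurons, 0 and 6 regions, and -0.09 for DCX, and ended the call of GAP43 (0.30, limma adjusted p = 0.0528). Over all regions it called 1799 toward neurons and 5592 toward progenitors. Numbers of peaks gave 0 higher in progenitors, 0 at day 40, 0 at day 60, 1 at day 120, 0 in late minus early progenitors and in the difference, and reversed STMN2 (-0.07), MAP2 (0.07) and GAP43 (-0.03). Of all 19206 genes tested that way, 1440 were called toward neurons and 1647 toward progenitors. MAP2 was 0.03 without the 2 shortest lists. The call of 1 gene at day 60 became 0 with a 5 kb flank, a pseudocount of 100, median-gene scaling or no filter. That in late minus early neurons became 0 with the gene body alone, a pseudocount of 2000 or median-gene scaling, and that of the difference with the first 2 of these. A pseudocount of 2000 gave 0 at day 120, and a fit of 2 population means gave 0 higher in progenitors, where 1119 of all 18751 genes were. Within 3 kb of the starts 2 genes passed, with MAPT, taken by both gene ends, at 0.91 kb and GAP43 at 1.20 kb, both reversed in sign from 1 kb. Regions called became 0 in both directions with 50% overlap, where calls over all regions were 155 and 714 against 2318 and 5582. They also became 0 within days, where no region of any gene was called and no exact p below 0.00154 is possible. The cause of these changes was not tested.

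Leaving out single libraries, 2 to 3 genes were higher in neurons, 0 to 1 in progenitors, 0 to 3 at day 40, 0 to 2 at day 60, 0 at day 90, 0 to 4 at day 120, 0 to 2 in late minus early neurons, 2 to 3 in progenitors, 0 to 1 in the difference and 0 to 1 at the starts, with 1 to 5 regions toward neurons and 2 to 8 toward progenitors. Over all genes and days, these removals called 1618 to 3521 genes higher in neurons and 1447 to 2403 higher in progenitors. Over all regions, the same removals called 2339 to 3954 toward neurons and 5695 to 8709 toward progenitors. MAP2 ranged from -0.10 to 0.01, and starts in kb from 0.00 to 0.02 for DCLK2, -0.18 to 0.30 for TUBB3, -0.09 to 0.04 for MAP1B and -0.10 to 0.00 for GAP43. Of the single-gene values under the other settings, 211 kept their direction and stayed either called or not called, 62 lost the call, 4 gained it and 10 reversed. Values that were never called are among the 211. These counts leave out the single-library removals, under which 12 values reversed, and calls lost there are given gene by gene above. Deviations of same-numbered neuron and progenitor libraries had r of -0.123, 0.214, 0.064 and 0.157 from day 40 to day 120. Over all pairs of groups r ran from -0.123 to 0.247. With 2 libraries per group, these values cannot settle whether same-numbered libraries were paired. The replicate block changed no call of the 9 genes, with 3 higher in neurons and 1 in progenitors.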
